A study of Homo sapiens with 24 samples.

Results

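The comparison described here set 3 RNA-seq libraries of HEK293A cells in which RAP2A, RAP2B and RAP2C are knocked out by label (RAP2 tKO) against 3 libraries of wild-type (WT) HEK293A cells, all grown on a soft hydrogel of 1 kPa. These are 6 of the 24 libraries of a study of matrix stiffness that crossed 4 genotypes with hydrogels of 1 and 40 kPa, with 3 biological replicates in each of the 8 groups, as the series' design text calls them. Of 58266 gene symbols, the 14382 with an FPKM of at least 1 in 3 or more of the 6 libraries were compared. FPKM, a fragment count divided by transcript length and by library depth, is a level that can be compared between genes. HEK293A is a human embryonic kidney line that grows attached. All groups were kept in DMEM with 10% FBS and seeded onto fibronectin-coated hydrogels with no other treatment. The groups used for comparison were RAP2 tKO and WT on 40 kPa, and 2 more lines on both hydrogels, LATS dKO, which lacks LATS1 with LATS2 by label, and YAP/TAZ dKO, which lacks YAP with TAZ by label. The sources used here do not give how the lines were edited or whether RAP2 tKO is a single clone, so a difference from WT belongs to the line and cannot be told apart from a difference between clones. Nothing in the labels says that the replicates were separate cultures, and p-values measure the spread between these samples.

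RAP2A, RAP2B and RAP2C are small GTPases of the Ras family that cycle between a form bound to GDP and an active form bound to GTP. Active RAP2 binds the kinases MAP4K4, MINK1 and TNIK, and RAP2 has been described as active in cells on soft matrix, where these kinases act on the Hippo pathway. In that pathway the kinases LATS1 and LATS2 phosphorylate the coactivators YAP and TAZ and keep them out of the nucleus. When LATS is inactive, YAP and TAZ bind TEAD transcription factors and switch on genes such as CTGF, CYR61 and ANKRD1. The comparison asks which genes differ in the absence of RAP2 on the matrix where RAP2 is reported to act.

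The 6 libraries held 26.32 to 35.28 M fragments, inferred from the confidence intervals deposited with the values, and each detected 14254 to 14481 genes at 1 FPKM or more. The SD of the log2 difference between replicates lay between 0.38 and 0.42. The difference between the groups followed the GC content of the genes weakly (rank correlation 0.19 across 14188 genes), and after removal of that trend 1228 genes were called in place of the 941 given below; its part in single genes was not tested. In bulk RNA, fewer cells of a type and less RNA per cell cannot be told apart, and the sources used here give no strand setting of the counting, so a gene and its antisense partner cannot be told apart either. The HEK293 markers KRT8, KRT18, VIM and CDH2 were expressed in all libraries, while PAX2 reached at most 0.473 FPKM and NEFM at most 0.0222. Of 10 such markers 7 were tested, 2 were higher in RAP2 tKO (KRT8 and KRT18) and 1 was lower (NEFL). The share called was 42.9%, against 6.54% of all genes. Markers of other cell types were low: 5 of 12 neuronal, 3 of 10 fibroblast, 2 of 10 immune and 0 of 8 endothelial markers passed the filter. Of these 10 tested genes 0 were called. With 6.54% of all genes called, this count does not set them apart from other genes. The summed FPKM of the endothelial list was 0.597 to 1.17 in WT and 1.15 to 1.19 in RAP2 tKO, and CDH5, PTPRC, CD3E and DCN were at or near 0. Summed over the lists, the range was 16.6 to 20.3 in WT and 17.1 to 20.5 in RAP2 tKO for neuronal markers, 15.5 to 18.4 and 14.2 to 18.6 for fibroblast markers, and 6.72 to 8.52 and 6.64 to 8.44 for immune markers.

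The 3 targeted genes were still expressed in the libraries labelled RAP2 tKO, and the RNA level does not check the labels, since a small edit that ends a protein can leave its RNA in place. RAP2A (ENSG00000125249.6, chromosome 13, 98086476 to 98121382 in hg19, the build of all positions from the files) was at 8.09, 7.78 and 7.88 FPKM in the WT libraries and at 5.76, 5.96 and 7.35 in RAP2 tKO. All RAP2 tKO libraries lay below WT, with a log2 difference of -0.28 (95% interval -0.52 to -0.05, adjusted p = 0.134 in limma). RAP2B (ENSG00000181467.3, chromosome 3, 152880059 to 152884962) was at 4.61, 4.61 and 4.51 FPKM in WT and at 5.52, 6.04 and 5.64 in RAP2 tKO, with all RAP2 tKO libraries above WT (0.27, 95% interval 0.11 to 0.44, adjusted p = 0.0712). RAP2C (ENSG00000123728.9, chromosome X, 131337052 to 131353508) overlapped between the groups, at 15.9, 19.4 and 18.5 against 17.8, 21.7 and 23.2 FPKM (0.20, adjusted p = 0.326). None of the 3 was called. RAP2B did pass in 3 of the alternative analyses and RAP2A in 1, with adjusted p between 0.00187 and 0.19 for RAP2B and between 0.0114 and 0.287 for RAP2A over all of them. Of 22 genes of the RAP2 pathway 21 were tested and 0 were called, where 6.54% of all genes were called. Their median log2 change was -0.03, although up to 3 were called higher and up to 2 lower in single alternatives. The kinases bound by active RAP2 overlapped between the groups: MAP4K4 at 34.6, 35.3 and 38.4 FPKM in WT against 36.6, 36.5 and 39.1 in RAP2 tKO, and MINK1 at 32.5, 36.9 and 38.4 against 35.2, 36.1 and 37. TNIK was at 11.4, 11.4 and 10.9 FPKM in WT and at 10.02, 10.3 and 15.5 in RAP2 tKO, where replicate 3 stood above the other libraries. PLCG1, a phospholipase C, ARHGAP29, a GTPase-activating protein, and RAP1B, a close relative of RAP2, differed by -0.09, -0.30 and 0.36 on the log2 scale, none of them called.

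In all, 941 of the 14382 genes were called (6.54%, limma on log2(FPKM + 1), Benjamini-Hochberg adjusted p below 0.05 over all genes). Of these, 457 were higher in RAP2 tKO (3.18% of the genes tested) and 484 lower (3.37%). Most differences were small: the median size among called genes was 0.41 in log2(FPKM + 1). On that scale 25 called genes were higher and 28 lower by at least 1. The fold values given below are ratios of mean FPKM, by which more genes reach 2-fold. The groups did not overlap for 4651 genes (32.3%). Fewer genes were called when any 1 of the 6 libraries was left out, 153 (without RAP2 tKO replicate 2) to 324 (without WT replicate 3). The largest changes were ranked among called genes with a mean of at least 5 FPKM in the higher group. Clone-named genes and most short RNAs were left out by name, but RNA5SP345, described below, was kept. Of the largest rises 4 were those of YAP and TAZ targets. The largest falls were those of RAMP1, PALM and VAMP8, as the plot of level against change shows.

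**Figure D1:**
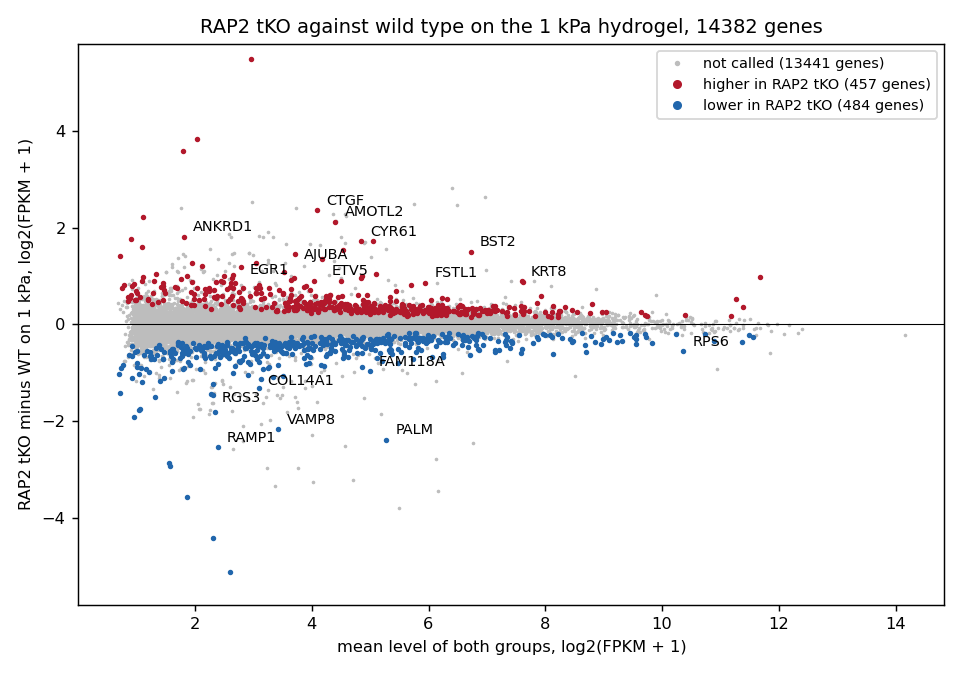
Difference between RAP2 tKO and WT on 1 kPa (vertical axis, log2(FPKM + 1)) against the mean level of both groups (horizontal axis, log2(FPKM + 1)) for 14382 genes. Red points are the 457 genes called higher, blue the 484 called lower and grey the rest; CTGF stands at 2.36 and RAMP1 at -2.54, and the points beyond them are short RNAs or genes with clone names.

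Targets of YAP and TAZ were among the largest rises. CTGF (connective tissue growth factor, now CCN2; ENSG00000118523.5, chromosome 6, 132269316 to 132272513), a secreted matricellular protein and a classic YAP target, was at 6.97, 6.29 and 6.38 FPKM in the WT libraries and at 38.4, 37 and 37.9 in RAP2 tKO. The groups were far apart and each was tight, and CTGF rose 5.77-fold (log2 change 2.36, SE 0.0583, adjusted p = 3.45e-05). CYR61 (now CCN1; ENSG00000142871.15, chromosome 1, 86046444 to 86049645), its relative, went from 13.8, 15.6 and 15.1 to 51.7, 51.5 and 50.1 FPKM, again with no overlap (3.45-fold, log2 change 1.72, SE 0.0579, adjusted p = 0.000128). ANKRD1 (ENSG00000148677.6, chromosome 10, 92671853 to 92681033), an ankyrin repeat protein and a further target, was near the detection limit in WT at 1.13, 0.651 and 0.853 FPKM. It reached 5.06, 5.8 and 5.85 FPKM in RAP2 tKO (6.35-fold, log2 change 1.81, SE 0.12, adjusted p = 0.00179). AMOTL2 (ENSG00000114019.14, chromosome 3, 134074716 to 134094321), a YAP-binding member of the angiomotin family and a YAP target too, was at 9.65, 10.6 and 7.28 FPKM in WT and 45.2, 45.1 and 39.1 in RAP2 tKO (4.7-fold, log2 change 2.13, SE 0.134, adjusted p = 0.00158). These 4 genes were called in each of the 16 alternative analyses.

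The promoters of CTGF and ANKRD1, and of EPHA2, a receptor tyrosine kinase described below, hold the core sequence that TEAD factors recognise. They are shown because among the 10 of the 15 largest rises with a promoter in the RefSeq table these 3 held it. Each run is the 250 bases before the start of the gene, 5′ to 3′ on the strand of the gene, from RefSeq on GRCh38.p14: chr6:131951373-131951622 for CTGF (CCN2 in the table), chr10:90921088-90921337 for ANKRD1 and chr1:16156070-16156319 for EPHA2, all on the minus strand. Capitals mark GGAATG on either strand (its reverse complement reads CATTCC) and TGANTCA, the AP-1 sequence, which do not overlap here.
CTGF: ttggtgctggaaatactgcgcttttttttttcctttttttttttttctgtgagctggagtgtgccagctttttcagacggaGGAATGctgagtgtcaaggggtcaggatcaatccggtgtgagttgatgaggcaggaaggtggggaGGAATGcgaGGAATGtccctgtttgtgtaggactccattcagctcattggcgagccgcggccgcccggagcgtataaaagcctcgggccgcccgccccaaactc
ANKRD1: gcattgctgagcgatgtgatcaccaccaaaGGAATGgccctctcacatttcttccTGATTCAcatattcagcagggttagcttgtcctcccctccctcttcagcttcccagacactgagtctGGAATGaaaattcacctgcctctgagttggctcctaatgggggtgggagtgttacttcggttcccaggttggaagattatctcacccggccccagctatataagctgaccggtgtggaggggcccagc
EPHA2: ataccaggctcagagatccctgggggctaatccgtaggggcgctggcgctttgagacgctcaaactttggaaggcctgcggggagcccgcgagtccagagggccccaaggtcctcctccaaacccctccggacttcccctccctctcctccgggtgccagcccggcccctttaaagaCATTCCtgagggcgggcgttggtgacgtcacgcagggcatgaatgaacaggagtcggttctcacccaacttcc
CTGF has GGAATG 3 times, its first base 169, 104 and 95 bases before the start. ANKRD1 has it at 220 and 128 bases and the AP-1 sequence at 195 bases, and EPHA2 has CATTCC at 73 bases. Among the 10269 tested genes matched to the table, 9.0% hold GGAATG in the 250 bases and 3.4% TGANTCA. The share was 9.2% (32 of 346) and 4.3% among the genes called higher and 8.4% (30 of 357) and 2.2% among those called lower. Of the 15 largest falls 9 were matched and 0 held either sequence. In the signature, GGAATG was held by 2 of the 6 matched genes that rose and by 2 of the 5 matched genes that were not called, and AMOTL2 and AJUBA have no match. A match is a description of the sequence and does not show binding.

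Of the 22 genes of the YAP, TAZ and TEAD signature 17 were tested, 8 rose, 0 fell and 9 were not called. The share called was 47.1%, against 6.54% of all genes. This and all other lists here were written with earlier results of these data known, so a high share can be partly built in. The median log2 change was 0.45 against 0.01 over all genes tested. Besides the 4 genes above, LATS2, the kinase gene that YAP itself induces, was at 2.32, 2.4 and 1.74 FPKM in WT and 3.67, 4.24 and 4.99 in RAP2 tKO (log2 change 0.75, adjusted p = 0.0285). IGFBP3, a binding protein of insulin-like growth factors, went from 0.52, 0.531 and 0.682 to 1.42, 1.45 and 1.71 FPKM (0.68, adjusted p = 0.0187). MYOF, a membrane repair protein, and ARHGEF17, a guanine nucleotide exchange factor, rose by 0.50 and 0.45 (adjusted p = 0.0391 and 0.0491). The calls of these 4 were lost in 6 to 12 of the alternative analyses, and the count for the list fell to 4 or 5 when any 1 library was left out. Among members not called, CRIM1 (0.48), PTPN14 (0.32) and FJX1 (0.29, adjusted p = 0.0793) were above WT on average, while F3 (-0.10), CCDC80 (-0.19) and ASAP1 (-0.03) were not. The smallest differences with a positive sign were those of GADD45A, FOXF2 and DOCK5, at 0.13, 0.15 and 0.18. AXL, NT5E, NUAK2, TGFB2 and RBMS3 were too low to test.

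Of 37 genes of the Hippo pathway itself 3 rose, 1 fell and 33 were not called (median 0.05), 10.8% called against 6.54% of all genes. With 1 library left out 1 to 3 rose and 0 fell. AJUBA (ENSG00000129474.15, chromosome 14, 23440383 to 23451851), a LIM protein that binds LATS kinases and holds them inactive at junctions, was at 7.21, 6.28 and 7.2 FPKM in WT and 22.7, 20.2 and 19.5 in RAP2 tKO. The groups were clearly apart (3.01-fold, log2 change 1.46, SE 0.0844, adjusted p = 0.00111). Its relative WTIP rose from 3.57, 3.71 and 3.19 to 5.68, 5.7 and 5.76 FPKM (0.58, adjusted p = 0.0141). Of the TEAD factors, TEAD4 rose from 34.7, 34 and 31.3 to 49.1, 46.4 and 45.8 FPKM (0.49, adjusted p = 0.0114) and TEAD2 fell from 23.1, 23.5 and 23.5 to 19.3, 19.4 and 20.2 (-0.24, adjusted p = 0.0373). YAP1 was at 30.9 ± 1.05 FPKM in WT and 32.1 ± 1.66 in RAP2 tKO (SD, n = 3), and TAZ (WWTR1) at 27.3 ± 3.0 and 27.3 ± 4.52. LATS1 was at 12.9 ± 1.03 and 13.1 ± 1.09 FPKM.

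The same genes were compared with their level in the lines labelled LATS dKO and YAP/TAZ dKO on the same hydrogel, where CTGF was at 67.9, 70.2 and 74 FPKM in LATS dKO and 0.246, 0.246 and 0.198 in YAP/TAZ dKO. RAP2 tKO lay between WT and LATS dKO, and YAP/TAZ dKO lay below WT. LATS dKO was tested directly against RAP2 tKO, a comparison that uses no WT library: 4459 genes were called (31.0%), 2007 higher and 2452 lower in LATS dKO. CTGF was higher in LATS dKO by 0.89 on the log2 scale (adjusted p = 0.000187), CYR61 by 1.25 (adjusted p = 7.82e-05) and AMOTL2 by 0.59 (adjusted p = 0.0017). The gap was widest for ANKRD1, at 38.7, 34.4 and 36.6 FPKM in LATS dKO and 2.52 above RAP2 tKO (adjusted p = 3.65e-05), and for AJUBA, at 66.5, 66.1 and 71.1 FPKM (1.66, adjusted p = 8.07e-05). LATS2, a gene LATS dKO is labelled as lacking, was at 3.24, 2.94 and 3.38 FPKM there, above the WT libraries, so its RNA does not check that label. For LATS2 and IGFBP3 the difference was -0.33 and -0.07 (adjusted p = 0.0633 and 0.605). In the signature, 9 genes were higher in LATS dKO than in RAP2 tKO and 1 was lower. In YAP/TAZ dKO, ANKRD1 was at 0.0779, 0.0494 and 0.0841 FPKM, AMOTL2 at 2.29, 1.54 and 1.82 and CYR61 at 5.01, 4.62 and 4.82.

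**Figure D2:**
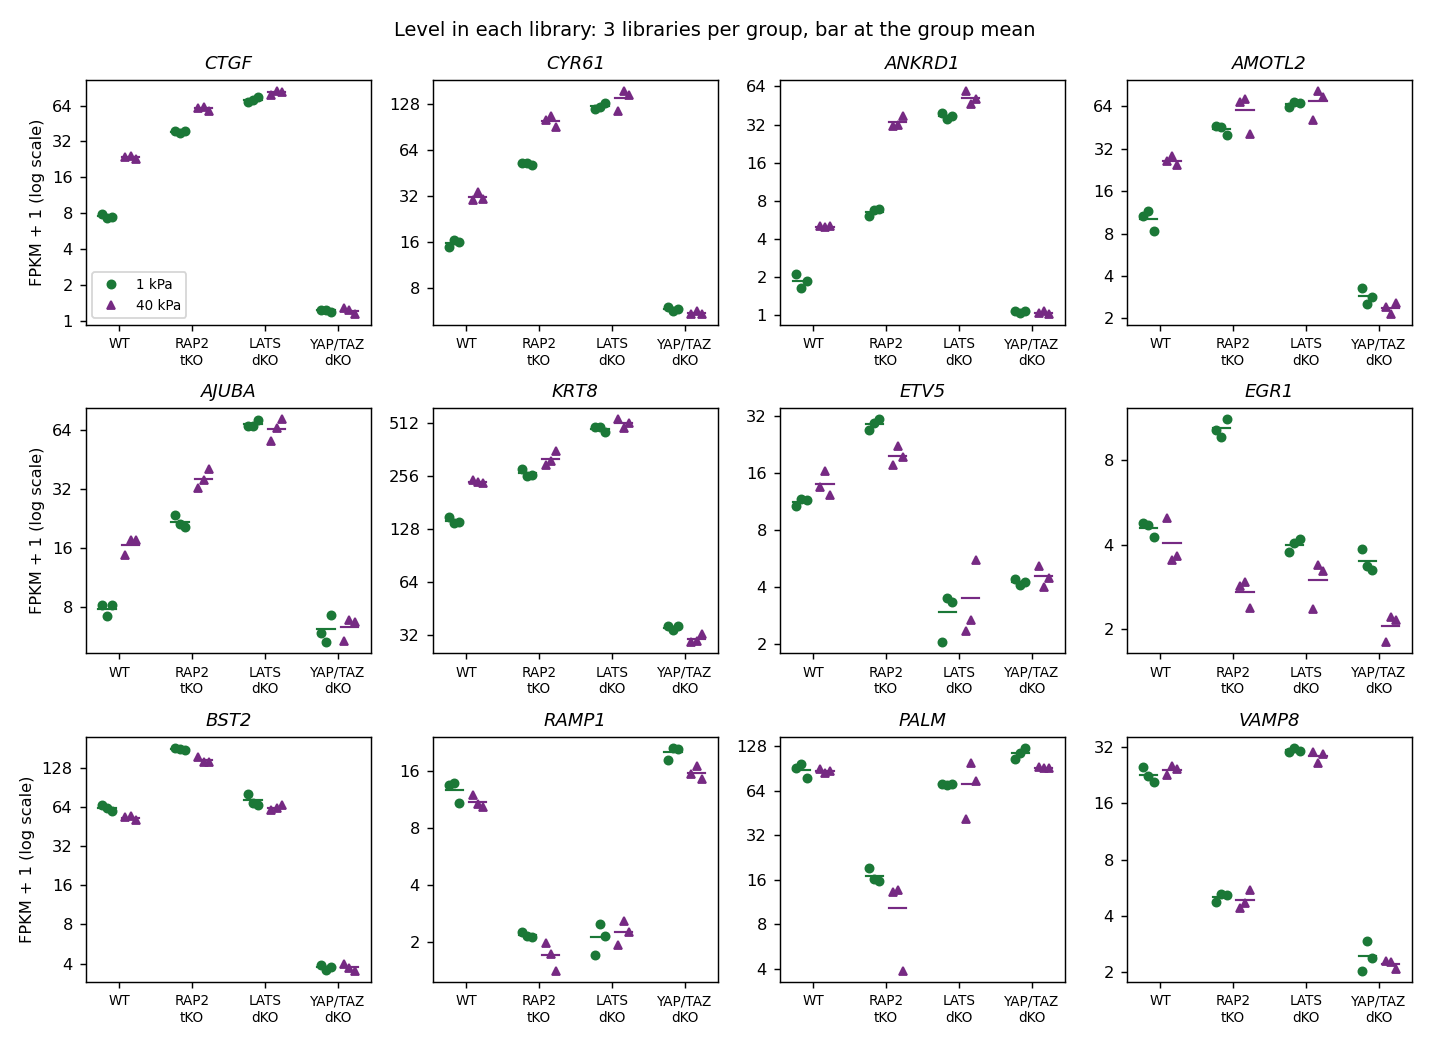
FPKM + 1 (log scale) of 12 genes in all 24 libraries, by genotype; circles are libraries on 1 kPa, triangles on 40 kPa, and bars group means of 3. On 1 kPa, RAP2 tKO lies between WT and LATS dKO for CTGF, CYR61, ANKRD1, AMOTL2, AJUBA and KRT8, above both for ETV5, EGR1 and BST2, and below both for PALM and VAMP8.

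Genes that respond to growth factor signalling through the kinase ERK were a further group with rises. Of 15 ERK output genes tested, 9 rose and 0 fell, with a median of 0.41. The share called was 60%, against 6.54% of all genes, for a list that was also written with earlier results of these data known. ETV5, an ETS transcription factor induced by ERK, was at 9.76, 10.7 and 10.5 FPKM in WT and 26, 28.5 and 29.8 in RAP2 tKO, all libraries apart (2.72-fold, log2 change 1.36, SE 0.0699, adjusted p = 0.000772). Its relative ETV4 went from 11, 10.6 and 9.41 to 19.1, 19.2 and 17.6 FPKM (0.79, adjusted p = 0.00639). EPHA2, a receptor tyrosine kinase for ephrins, was at 20.2, 21.8 and 17.2 FPKM in WT and 43.5, 37.4 and 39.6 in RAP2 tKO (0.99, adjusted p = 0.00739). Feedback inhibitors of the same pathway rose with them: the phosphatase DUSP4 from 5.5, 5.74 and 5.46 to 9.77, 8.97 and 9.05 FPKM (0.64, adjusted p = 0.00777), and DUSP6, SPRY1, SPRY2 and SPRY4 by 0.52, 0.33, 0.36 and 0.70. The cyclin gene CCND1 rose by 0.90 (adjusted p = 0.0158). ETV4, ETV5, EPHA2 and DUSP4 were called in every alternative, and 5 members of the list were called when any 1 library was left out.

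Of 22 immediate-early genes, which cells switch on within minutes of a stimulus, 9 rose and 0 fell (median 0.31). The share called was 40.9%, against 6.54% of all genes. EGR1, a zinc finger factor, was at 3.76, 3.69 and 3.26 FPKM in WT and 9.24, 8.72 and 10.2 in RAP2 tKO (2.63-fold, log2 change 1.18, SE 0.0868, adjusted p = 0.00234). The nuclear receptor NR4A1 rose from 7.87, 8.82 and 7.6 to 16.8, 17.3 and 14.8 FPKM (0.93, adjusted p = 0.00564) and IER3 from 5.62, 5.43 and 5.33 to 10.1, 10.4 and 10.8 (0.82, adjusted p = 0.0029). EGR3 was low in both groups, at 0.513, 0.421 and 0.402 against 1.65, 1.52 and 1.34 FPKM (0.79, adjusted p = 0.0132). The AP-1 genes FOS, FOSL1 and JUNB rose by 0.86, 0.76 and 0.74, ATF3 by 0.60 and IER2 by 0.44. Without any 1 library, 4 to 7 of these genes were called.

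Many genes of both groups were lower in LATS dKO than in RAP2 tKO. ETV5 was at 1.05, 2.48 and 2.34 FPKM in LATS dKO, below WT, and -3.34 from RAP2 tKO (adjusted p = 0.000348). ETV4 was at 1.57, 1.72 and 2.25 FPKM there (-2.79, adjusted p = 7.82e-05). EGR1 was at 2.77, 3.04 and 3.18 FPKM, -1.38 from RAP2 tKO (adjusted p = 0.000314), while DUSP4 and IER3 differed from RAP2 tKO by 0.16 and 0.19 (adjusted p = 0.0851 and 0.111). Of the ERK output genes, 11 of 15 were lower in LATS dKO than in RAP2 tKO and 0 were higher. Of the immediate-early genes 13 of 22 were lower and 3 higher. Calls were common in this comparison: 31.0% of the 14382 genes tested, with 2452 lower and 2007 higher in LATS dKO.

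Of 22 targets of SRF, the serum response factor that acts with MRTF coactivators on actin genes, 9 rose and 0 fell (median 0.17). The share called was 40.9%, against 6.54% of all genes. The calponin CNN2 was at 11.9, 10.7 and 10.7 FPKM in WT and 21.3, 21.2 and 21.5 in RAP2 tKO (1.93-fold, log2 change 0.89, SE 0.0614, adjusted p = 0.00211). Beta-actin, ACTB, one of the most abundant messages, went from 2383, 2404 and 2288 to 3106, 2996 and 2930.3 FPKM (0.35, adjusted p = 0.0102), and the actin crosslinker FLNA from 207, 196 and 192 to 287, 257 and 267 (0.44, adjusted p = 0.0129). CNN3 rose by 0.37, ACTG1 by 0.53, TAGLN by 0.49, SRF itself by 0.31, vinculin (VCL) by 0.30 and zyxin (ZYX) by 0.31. Of these, CNN2 was called in every alternative, and 3 to 5 members were called when any 1 library was left out; actin genes have near-identical copies that may share fragments.

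Of 28 adhesion genes 5 rose and 1 fell (median 0.09), and with 1 library left out 1 to 3 rose and 0 or 1 fell. The share called was 21.4%, against 6.54% of all genes. The heparan sulfate proteoglycans SDC2 and SDC1 rose from 65.5, 63.1 and 67.3 to 97.3, 94.8 and 91.1 FPKM (0.52, adjusted p = 0.00429) and from 12.9, 13.4 and 11.5 to 21.1, 18.5 and 18.5 (0.58, adjusted p = 0.0176). The integrin subunits ITGAV and ITGB5, which pair as a receptor for vitronectin, rose by 0.60 and 0.33, and the adaptor BCAR1 by 0.44. TLN1, which links integrins to actin, fell from 116, 116 and 115 to 97.8, 86.5 and 90.2 FPKM (-0.34, adjusted p = 0.0201); it lies on chromosome 9, where the 65 genes within 2.5 Mb had a median of -0.41. Of 26 listed matrix proteins 2 rose and 0 fell, 7.7% called, near the share of all genes. The list does not hold every matrix gene: COL14A1, a collagen described below, is outside it and fell (-1.32). FSTL1, a secreted glycoprotein, went from 42.5, 45.8 and 45.8 to 80.5, 80.1 and 85 FPKM (0.86, SE 0.0498, adjusted p = 0.00111), and EFEMP1, a fibulin, from 4.37, 4.13 and 4.45 to 7.34, 7.53 and 7.55 (0.67, adjusted p = 0.00718). The keratins of simple epithelia, KRT8 and KRT18, which pair into 1 filament, rose together. KRT8 was at 148, 136 and 139 FPKM in WT and 279, 255 and 258 in RAP2 tKO (0.90, adjusted p = 0.00111), and KRT18 at 147, 135 and 149.7 in WT against 262, 265 and 268 in RAP2 tKO (0.88, adjusted p = 0.00101). They were the 2 called members of 11 cadherin and epithelial genes tested (18.2%), and both have copies elsewhere in the genome. In LATS dKO both stood higher again, by 0.84 and 0.73 (adjusted p = 0.000258 and 9.41e-05). Of 18 annexin, S100 and caveolar genes 4 rose and 2 fell (median -0.03, 33.3% called), which became 0 to 2 and 1 with 1 library left out, with S100A16 up from 0.919, 0.641 and 0.88 to 2.7, 2.03 and 2.37 FPKM and ANXA6 down from 100.2, 98.2 and 101 to 78.5, 75.3 and 73.9.

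BST2 (tetherin), a membrane protein known from the interferon response, had one of the largest rises. It was at 64.9, 62.2 and 58.9 FPKM in WT and 181, 176 and 174 in RAP2 tKO (2.86-fold, log2 change 1.5, SE 0.0467, adjusted p = 0.000103). In LATS dKO BST2 was at 79.8, 67.6 and 65.6 FPKM, lower than in RAP2 tKO by a log2 difference of -1.31 (adjusted p = 0.000265), and in YAP/TAZ dKO at 2.89, 2.59 and 2.79. OAS3, an antiviral enzyme, went from 1.14, 1.28 and 2.07 to 4.18, 5.13 and 5.76 FPKM (1.28, adjusted p = 0.0141). Of 20 interferon response genes 4 rose (BST2, OAS3, IFITM2 and IFITM3), IFITM1 fell and 15 were not called (median 0.04), where 3.18% of all genes rose and 3.37% fell. With 1 library left out 1 to 3 rose and 0 fell. The IFITM genes are close copies of each other and may share fragments.

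Further large rises were those of LBH, a transcription cofactor, from 8.94, 5.75 and 6.08 to 16, 14.9 and 15.9 FPKM (1.09, adjusted p = 0.0149), and TNFRSF12A, the receptor of TWEAK, from 25, 23.1 and 21.1 to 47.6, 50.5 and 46.2 (1.03, adjusted p = 0.00216). GPRC5A, an orphan receptor, rose from 3.57, 2.98 and 3.73 to 8.45, 7.11 and 8.28 FPKM (1.02, adjusted p = 0.0075). ERAP2, a peptidase that trims antigens, went from 1.08, 2.11 and 2.49 to 4.85, 5.85 and 5.88 (1.2, adjusted p = 0.0247), a call lost in 5 alternatives with an adjusted p of up to 0.0884. RNA5SP345, a pseudogene of 5S ribosomal RNA, was listed at 0 in the WT libraries and at 29.8, 8.74 and 8.8 FPKM in RAP2 tKO; FPKM of such short transcripts is unstable, and in the 40 kPa libraries it was not called.

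The largest falls did not belong to a listed pathway. RAMP1 (ENSG00000132329.10, chromosome 2, 238767536 to 238820756), the partner that makes the calcitonin receptor-like protein a receptor for the peptide CGRP, was at 12.4, 12.7 and 9.85 FPKM in WT and only 1.27, 1.14 and 1.12 in RAP2 tKO. This was a 9.95-fold difference (log2 change -2.54, SE 0.111, adjusted p = 0.000401). PALM (ENSG00000099864.17, chromosome 19, 708939 to 748329), paralemmin, a lipid-anchored membrane protein, was at 89.9, 96 and 77 FPKM in WT and 18.1, 15.3 and 14.6 in RAP2 tKO (5.48-fold lower, log2 change -2.38, SE 0.108, adjusted p = 0.000444). VAMP8 (ENSG00000118640.10, chromosome 2, 85788685 to 85809154), a SNARE protein of late endosomes, fell from 24.1, 21.2 and 19.8 to 3.72, 4.24 and 4.16 FPKM (5.37-fold, log2 change -2.17, SE 0.0905, adjusted p = 0.000341). The groups were far apart in all 3.

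The other lines differed from RAP2 tKO in different ways for these genes. RAMP1 was at 0.713, 1.5 and 1.15 FPKM in LATS dKO, overlapping RAP2 tKO (difference -0.05, adjusted p = 0.819), and at 17.3, 20.2 and 19.98 in YAP/TAZ dKO. PALM was at 69.97, 68.8 and 70.5 FPKM in LATS dKO and 104, 115 and 124 in YAP/TAZ dKO. VAMP8 was at 29.1, 30.5 and 29.4 FPKM in LATS dKO and 1.04, 1.94 and 1.37 in YAP/TAZ dKO.

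CGA, the common subunit of the glycoprotein hormones, fell from 10.3, 7.65 and 7.51 to 2.34, 1.49 and 1.29 FPKM (-1.82, adjusted p = 0.00718). COL14A1, a collagen of fibril surfaces, fell from 11.2, 13 and 13 to 4.21, 3.61 and 5.4 (-1.32, adjusted p = 0.0075), and FAM118A from 42.6, 44.5 and 44 to 20.9, 21.4 and 23.1 (-0.97, adjusted p = 0.00101). Falls of about the same size or smaller were measured for TMEM216, a protein of the ciliary transition zone (-1.04), LXN, a carboxypeptidase inhibitor (-0.91), ALG1L (-1.0), C3orf14 (-1.06), the purinergic receptor P2RY11 (-1.12), the ciliary protein CFAP44 (-1.08) and the zinc finger gene ZNF682 (-0.93). The call of CFAP44 was lost in 7 of the 16 alternatives, and its difference on 40 kPa was -0.06. Those of C3orf14, P2RY11 and ZNF682 were lost in 1 each. RGS3, which speeds up GTP hydrolysis by G proteins, fell from 7.71, 6.54 and 7.36 to 1.84, 1.81 and 2.33 FPKM (-1.46, adjusted p = 0.00232), among neighbours on chromosome 9 with a median of -0.53. MTCO2P2, a nuclear copy of a mitochondrial gene, had a log2 change of -1.23 (adjusted p = 0.0133); all 37 mitochondrial entries are listed at 0, and reads from such copies cannot be placed with certainty.

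Chaperones were the list with the most falls, 6 of 21, with 0 rises and a median of -0.06. The share called was 28.6%, against 6.54% of all genes. CALR, CANX, HSP90B1, HSPA5 and PDIA4, all of the endoplasmic reticulum, fell, with log2 changes of -0.40, -0.17, -0.25, -0.24 and -0.20. HSPA5 was at 125, 121 and 122 FPKM in WT and 108, 102 and 102 in RAP2 tKO, and lies on chromosome 9 before 130 Mb, inside the stretch described below, though the 42 genes within 2.5 Mb of it had a median of -0.06. The sixth was HSPA1A, at 2.55, 3.1 and 2.81 FPKM in WT and 0.0736, 0.0971 and 0.215 in RAP2 tKO (-1.76, adjusted p = 0.00133). Its near-identical copy HSPA1B held most of the signal, 153 ± 7.65 FPKM in WT and 171 ± 11 in RAP2 tKO, and was not called (0.15, adjusted p = 0.191), so the level of HSPA1A is uncertain. With 1 library left out 1 or 2 chaperones were called lower. Without chromosome 9, which removed only HSPA5 from the list, 3 of 20 were called lower. Other members thus lost their call although they lie on other chromosomes.

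Cholesterol synthesis genes showed 5 rises of 24 and 0 falls (median 0.15). The share called was 20.8%, against 6.54% of all genes. HMGCS1, which makes the precursor of mevalonate, went from 79.3, 80.2 and 81.5 to 104, 108 and 107 FPKM (0.40, adjusted p = 0.00535), and MSMO1, SC5D, TM7SF2 and CYP51A1 rose by 0.43, 0.34, 0.37 and 0.32; their calls ranged from 1 to 11 over the alternatives. Of 25 hypoxia and glycolysis genes 3 rose, the glucose transporter SLC2A1 (0.38), VEGFA (0.38) and ADM (0.37), and 2 fell, NDRG1 (-0.29) and EGLN3 (-0.36). With 1 library left out 0 to 2 of this list rose and 0 or 1 fell, and the calls of ADM and VEGFA were lost in 8 and 7 of the 16 alternatives. Of 26 genes of the ATF4 response ATF5 rose (0.45) and 3 fell, the amino acid transporter pair SLC7A5 (-0.36) and SLC3A2 (-0.27) and the serine synthesis enzyme PSAT1 (-0.26). SLC7A5 was at 691, 698 and 655 FPKM in WT and 534, 540.2 and 514 in RAP2 tKO. Of 17 p53 targets PLK3 rose (0.59) and DDB2 and SESN1 fell (-0.58 and -0.42). Of 15 TGF-beta targets TGFB1 rose (0.56) and ID2 fell (-0.34). With 1 library left out, 0 or 1 genes rose and 1 fell in the ATF4 list, and 0 or 1 rose and 0 or 1 fell among the p53 and TGF-beta targets. The share called was 20% in the hypoxia and glycolysis list and 15.4% in the ATF4 list. It was 17.6% among p53 targets and 13.3% among TGF-beta targets.

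Of 24 genes of G1 and S phase 1 fell, CDC45 (-0.24, adjusted p = 0.0426), and of 23 genes of G2 and mitosis 0 were called, with medians of 0.04 and 0.03, where 6.54% of all genes were called. CDC45 was not called in any fit with 1 library left out. No member of the 12 Wnt targets or the 14 Notch pathway genes tested was called. Of 23 axon guidance genes PLXNA2, a semaphorin receptor, rose (0.77), and of 9 genes of the IGF system IGFBP5 fell (-0.65). HOX genes, which keep a record of the position of a cell's origin, held 2 rises of 23, HOXA3 (0.48) and HOXC13 (0.33), neither of which was called in any fit with 1 library left out. The calls of PLXNA2 and IGFBP5 were each lost in 7 of the 16 alternatives, that of ATP5C1, named next, in 4. Among ribosomal protein genes RPS6 fell (-0.55), and of 28 oxidative phosphorylation genes ATP5C1 (-0.37). RPS6 was at 1649.6, 1538 and 1597 FPKM in WT and 1109, 1085 and 1061 in RAP2 tKO, on a stretch of chromosome 9 with a median of -0.44. ATP5C1, on chromosome 10, had neighbours at -0.32. The strip plot of the lists shows these values gene by gene.

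**Figure D3:**
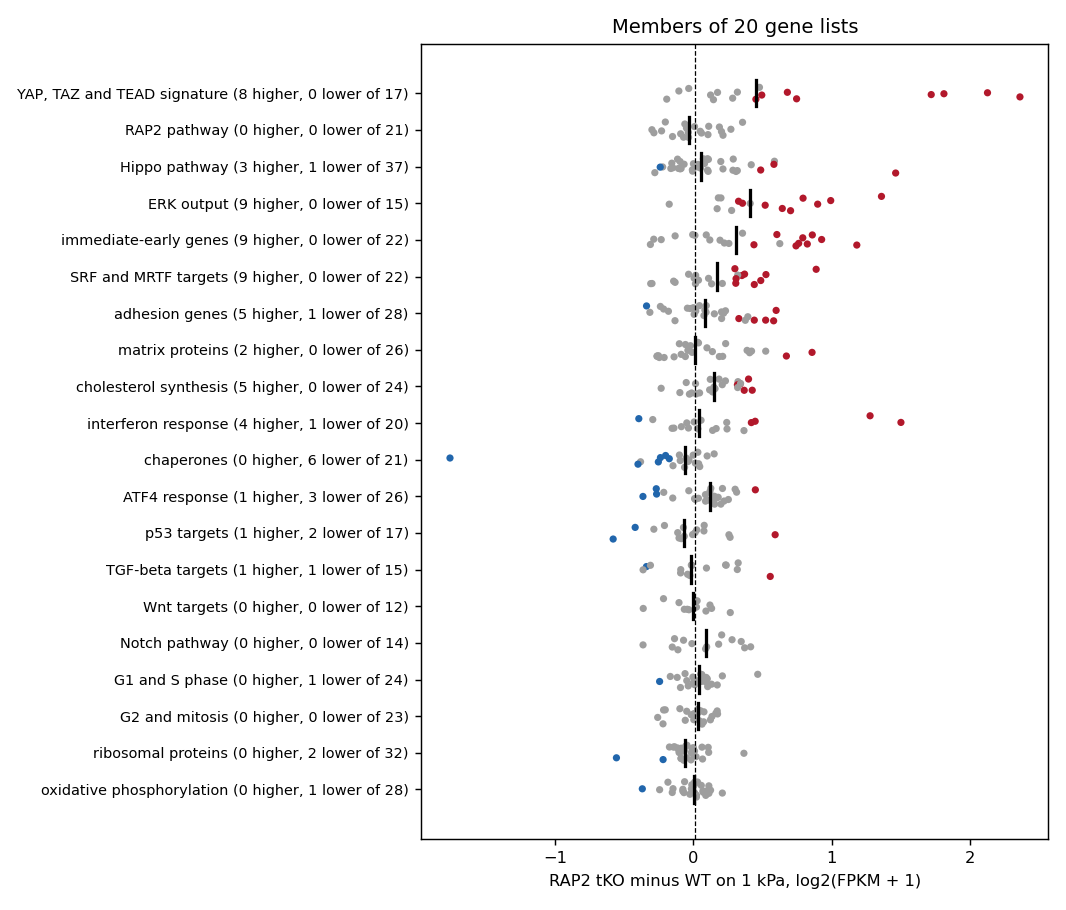
Log2 change between RAP2 tKO and WT on 1 kPa (horizontal axis) of each tested member of 20 gene lists (rows, with counts of genes called higher and lower); red is called higher, blue called lower, grey not called, black bars are list medians and the dashed line is the median of all genes, 0.01. The signature of YAP, TAZ and TEAD has its median at 0.45, the ERK output list at 0.41 and the immediate-early genes at 0.31.

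A large share of the lower genes lay on 1 chromosome. Chromosome 9 carried 575 of the tested genes (4% of all) but 185 of the 484 lower calls (38.2%), with a median log2 change of -0.28. The direction changed within the chromosome. The 400 genes before 130 Mb, a boundary set after the values were seen, had a median of -0.39, 367 of them were below 0, 183 were called lower and 3 higher. The 175 genes after it had a median of 0.16, with 24 called higher and 2 lower. After removal of the GC trend their median was 0.10. On 40 kPa it was -0.04, with RAP2 tKO replicates 1, 2 and 3 at 0.14, 0.11 and -0.43 relative to the WT mean on 1 kPa. In the other lines against WT on 1 kPa it was -0.02 (LATS dKO) and -0.14 (YAP/TAZ dKO). In bins of 10 Mb the part before the boundary ranged from -0.53 to -0.20, while 260 bins on other chromosomes ranged from -0.32 to 0.17. The shift was alike in the 3 RAP2 tKO libraries, at -0.41, -0.39 and -0.37 relative to the WT mean, against -0.01, -0.01 and 0.03 in the WT libraries. The same stretch stood at -0.35 in RAP2 tKO against WT on 40 kPa, which shares no library with the comparison on 1 kPa. It was also below WT in the other lines on 40 kPa, at -0.23 in LATS dKO and -0.24 in YAP/TAZ dKO, and on 1 kPa, at -0.27 and -0.30, where they share the WT libraries. Its part in the lower calls of single genes on this stretch, such as RGS3, RPS6, TLN1, HSPA5 and PSAT1, was not tested. In the fit over all genes, 430 of the higher and 299 of the lower calls lay on other chromosomes. Without chromosome 9 the fit called 557 genes, 324 higher and 233 lower. The fit and the adjustment were then redone on the remaining genes, and some calls on other chromosomes were lost.

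Other chromosomes moved less. Chromosome 16 had a median of 0.12, with 40 genes higher and 3 lower, and chromosome 22 a median of -0.12, with 2 higher and 30 lower. After removal of a trend with GC content the medians were 0.09 and -0.15, and that of the stretch of chromosome 9 was -0.38. None of the YAP targets described above is on chromosome 9. The genes within 2.5 Mb of CTGF, ANKRD1 and AMOTL2 had medians of -0.01, 0.04 and -0.01, those around CYR61 0.09.

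**Figure D4:**
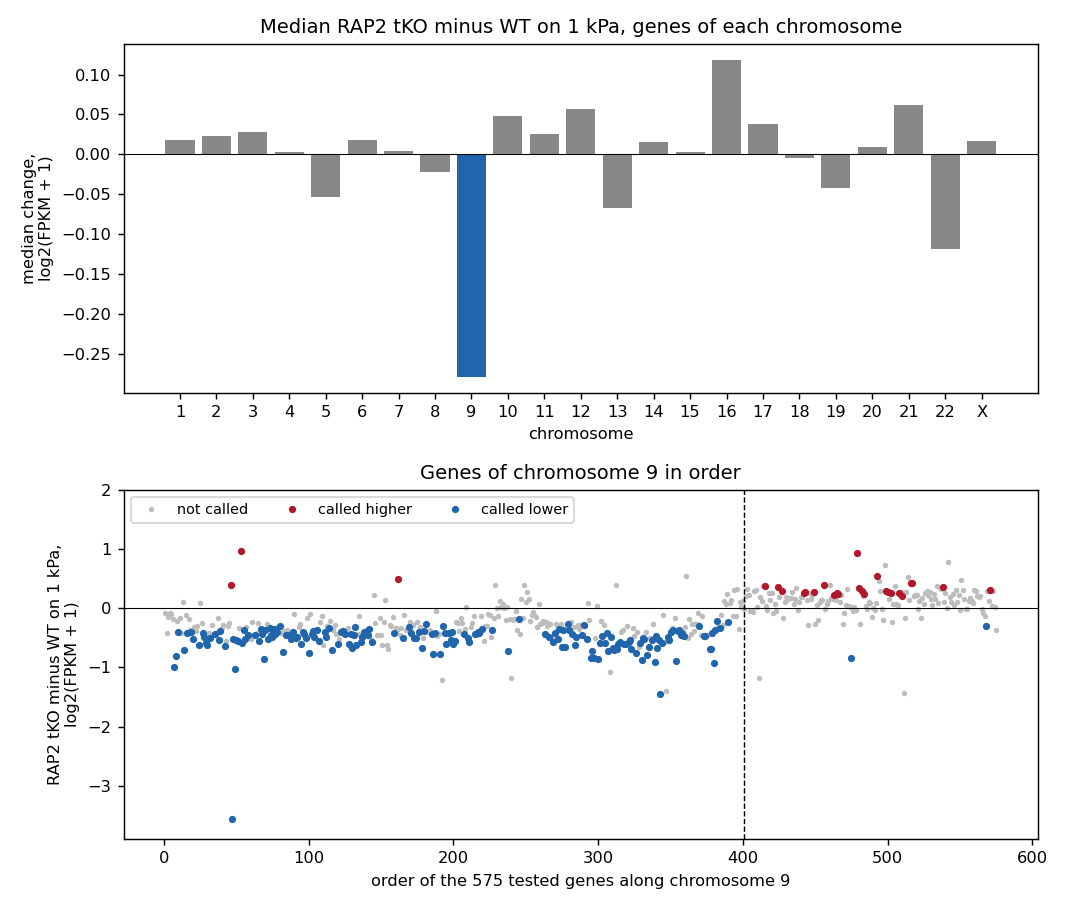
Upper panel: median log2 change between RAP2 tKO and WT on 1 kPa of the tested genes of each chromosome. Lower panel: log2 change of the 575 tested genes of chromosome 9 in their order along it, red called higher, blue called lower, grey not called; left of the dashed line (130 Mb) the median is -0.39, right of it 0.16.

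The same genotypes were measured on the stiff hydrogel in libraries that the comparison above does not use. On 40 kPa 72 genes were called (0.501%), 28 higher and 44 lower. RAP2 tKO on 40 kPa replicate 3 stood apart from its group, its deviation following GC content (Spearman's rank correlation -0.67 over genes, which are not independent), and without it 1428 genes were called, 691 higher and 737 lower. The genes called on 1 kPa mostly kept their direction there. Of the 457 genes higher on 1 kPa, 366 (80.1%) were above 0 on 40 kPa, against 48.2% of all genes tested, and the libraries were without overlap in that direction for 205 and in the other for 5. Of the 484 lower genes 457 (94.4%) were below 0, against 51.8% of all genes, with 326 without overlap in that direction and 1 in the other. Without chromosome 9 the share of the lower genes was 91.3%. Across the 941 called genes the changes on both hydrogels had Pearson's r = 0.659 and a Spearman rank correlation of 0.781, as a description over genes of the same lines, not over independent samples. Across all 14382 genes tested, without that selection, the values were 0.345 and 0.365. The median change of the higher genes was 0.37 on 1 kPa and 0.19 on 40 kPa, and that of the lower genes -0.44 and -0.36. Both sets were chosen by their values on 1 kPa, so a smaller median on 40 kPa is partly built in. These medians therefore do not show a weaker effect on 40 kPa.

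**Figure D5:**
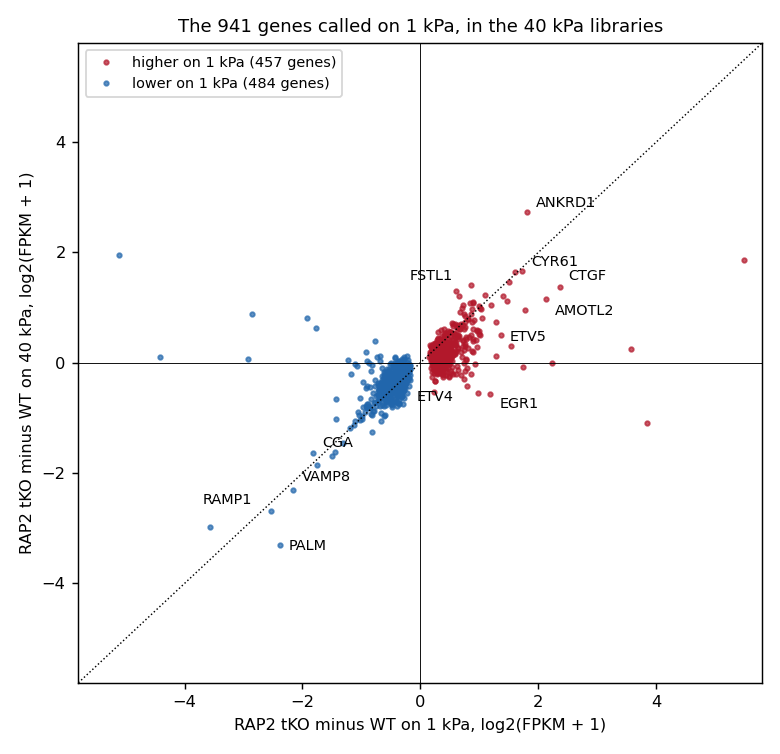
Log2 change between RAP2 tKO and WT on 40 kPa (vertical axis) against that on 1 kPa (horizontal axis) for the 941 genes called on 1 kPa, red higher and blue lower there; the dotted line marks equal changes. Most points keep their sign (366 of 457 higher and 457 of 484 lower genes), and EGR1 and ETV4 fall below 0 on 40 kPa; unlabelled points far from the centre are mostly short RNAs.

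All 8 signature genes that rose on 1 kPa were above 0 on 40 kPa as well, with a median of 0.93. CYR61 was at 29.1, 33 and 29.4 FPKM in WT on 40 kPa and at 100.1, 106 and 89.2 in RAP2 tKO (1.66, adjusted p = 0.00406). ANKRD1 was at 4.06, 3.94 and 4.05 FPKM in WT and 29.9, 30.5 and 36.7 in RAP2 tKO (2.73, adjusted p = 0.00187), a larger difference than on 1 kPa, but the test of the difference between the effects gave 0.92 with an adjusted p of 0.249. RAMP1 (-2.69, adjusted p = 0.004), VAMP8 (-2.31, adjusted p = 0.00352) and BST2 (1.46, adjusted p = 0.00352) were called in the same direction on 40 kPa. PALM was at 12.2, 12.7 and 2.88 FPKM in RAP2 tKO on 40 kPa, lowest in the library that stands apart (-3.3, adjusted p = 0.0701). Of the 9 rising ERK output genes 7 were above 0 on 40 kPa (median 0.20), and of the 9 rising immediate-early genes 3 (median -0.10).

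Whether an effect differed between the hydrogels was tested as an interaction over the 12 libraries of WT and RAP2 tKO. It was called for 4 genes (0.0278%), all with a smaller or opposite effect on 40 kPa, while 779 genes had an unadjusted p below 0.05. CTGF rose on both, to 60.2, 61.8 and 57.1 FPKM in RAP2 tKO from 22.5, 23.4 and 21.7 in WT on 40 kPa, but by less (1.37 against 2.36, difference -0.99, SE 0.0821, adjusted p = 0.00149). EGR1 was at 4.0, 2.53 and 2.63 FPKM in WT and 1.85, 1.93 and 1.38 in RAP2 tKO on 40 kPa (-0.56 against 1.18, difference -1.75, SE 0.195, adjusted p = 0.0173). ETV4 was at 13.8, 15.7 and 14.9 FPKM in WT and 11.5, 12.1 and 8.95 in RAP2 tKO (-0.43 against 0.79, difference -1.22, SE 0.149, adjusted p = 0.028). The fourth was MIR1302-3, a short RNA named after its values were seen, listed at 0 in WT on 1 kPa and at 3.69 ± 0.268 FPKM in RAP2 tKO there. Its call was lost in both fits over more than 12 libraries (adjusted p = 0.179 and 0.225 in limma). The calls of EGR1 and ETV4 were lost in 6 and 10 of 21 alternatives, among them leaving out any 1 of the 6 libraries on 1 kPa for EGR1, with adjusted p of up to 0.0909 and 0.149.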

How the data were processed

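RNA was extracted with TRIzol and made into stranded poly(A) libraries, per the labels' protocols. Reads were aligned with STAR 2.4.2a to hg19 and gene levels estimated with Cufflinks 2.2.1, per the submitters' processing notes. The authors deposited FPKM values per gene, 60350 entries in each library. FPKM was summed over entries sharing 1 of 58266 symbols (338 symbols had several entries), and 92 symbols flagged by Cufflinks as not estimated were left out. No counts were used. Depth was inferred from Cufflinks' confidence intervals, from 435 to 459 genes per library with 3 to 30 fragments, and limits the precision of genes near 1 FPKM.

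Genes reaching 1 FPKM in 3 or more of the 6 libraries were tested with limma 3.58.1 in R 4.3.3 (trend) on log2(FPKM + 1), with Benjamini-Hochberg adjustment over all tested genes and a threshold of 0.05. A fold change on this scale understates that of low genes. The fit included the 6 libraries, without a block. The comparisons on 40 kPa and with LATS dKO each used their own 6 libraries, the interaction 12. On simulated data for the 14382 genes the fit recovered 91% of genes changed 2-fold and 72% of those changed 1.5-fold in FPKM + 1. There were 13 false calls among the genes left unchanged. Changes were planted only in genes above about 5 FPKM, so the recovery of lower genes was not measured. Values were drawn independently from a normal distribution, with no GC trend and no shift of a chromosome. Promoters were read from a RefSeq table of GRCh38.p14.

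Named genes were the 15 largest rises and 15 largest falls among called genes whose groups did not overlap. The higher group had to have a mean of at least 5 FPKM. Clone names and most short RNAs were left out by name, but RNA5SP345 was not and is among the 15 rises. Also named were RAP2A, RAP2B, RAP2C and all members of the RAP2 pathway and of the YAP, TAZ and TEAD signature. Up to 4 called members of each other list and the called interactions were added. Further called members of lists were added after their values were seen. Members and lists were chosen with earlier results of these data known. The alternatives were a pseudocount of 0.1, no filter, median-ratio scaling, 1 fit over 24 libraries, the same without 2 libraries skewed by GC content, a replicate block, leaving out each library, other treatment of symbols and, chosen after seeing the data, removal of the GC trend and of chromosome 9.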

Additional observations from a re-analysis of the deposited data

Results flagged for a closer look

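For 3 genes the difference between RAP2 tKO and WT was not the same on both hydrogels, by the interaction test in limma over 12 libraries. The effect on 40 kPa minus that on 1 kPa was -1.75 on the log2 scale for EGR1 (adjusted p = 0.0173), -1.22 for ETV4 (adjusted p = 0.028) and -0.994 for CTGF (adjusted p = 0.00149). CTGF was called in all 21 alternatives, with adjusted p between 2.03e-06 and 0.0124 and a difference between -1.11 and -0.963. EGR1 lost its call in 6 of them, each leaving out 1 library on 1 kPa, and ETV4 in 10.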

How the results depend on the processing

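The 941 calls on 1 kPa became 443 with no filter, 2762 in 1 fit without both libraries skewed by GC content, 206 with a replicate block, 557 without chromosome 9 and 153 to 324 with 1 library left out; in the remaining alternatives the count was 903 to 1228. On 40 kPa the 72 calls became 47 with no filter, 1418 in 1 fit over 24 libraries, 2107 in that fit without both skewed libraries, 0 with a replicate block in limma (1541 genes at an unadjusted p below 0.05), 560 after removal of the GC trend and 8 to 1428 with 1 library left out, the highest without RAP2 tKO replicate 3. The 4 interaction calls became 9 with no filter, 8 in 1 fit over 24 libraries, 17 without both skewed libraries and 2 to 8 with 1 library left out. LATS dKO against RAP2 tKO gave 3058 to 5449 calls.

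The replicate numbers were not taken to pair the samples. Between WT and RAP2 tKO on 1 kPa same-numbered libraries correlated at 0.018 to 0.046 and others at -0.053 to 0.011, every library correlating best with its own number, a hint from the data only. On 40 kPa the same-numbered values were 0.014, -0.093 and -0.102, between RAP2 tKO and LATS dKO -0.053, -0.168 and -0.043, and between RAP2 tKO on both hydrogels 0.159, 0.024 and 0.152. Of 90 named genes called, 36 were called in all 16 alternatives. Sign changes occurred in genes that were not called. With 1 library left out the log2 change ranged for ASAP1 from -0.0941 to 0.0214, for F3 from -0.226 to 0.076, for MINK1 from -0.0588 to 0.0578, for RAPGEF2 from -0.107 to 0.00676, for RAPGEF4 from -0.101 to 0.0675, for RAPGEF6 from -0.0433 to 0.329, for SIPA1L3 from -0.525 to 0.134 and for TNIK from -0.128 to 0.164. MINK1 was at -0.053 after removal of the GC trend. Fewer samples or more genes tested are part of the construction of several alternatives; the cause of the other shifts was not tested.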
